A study of Mus musculus with 4 samples.

Results

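Bone marrow cells of mice given vitamin B12 and butyrate together were compared with cells of mice given neither, and the joint difference was set against the sum of the differences that each treatment gave alone. The comparison rests on 1 library per side, with 7124 cells used from the library labelled B12 + Butyrate and 8074 from Control, 15198 of the 29030 cells used in the series. Control mice received PBS injections and drinking water with 100 mM NaCl, and B12 + Butyrate mice received injections of 0.29 µg B12 and water with 100 mM sodium butyrate. The remaining libraries, needed for the sum, are Butyrate (PBS injections, 100 mM sodium butyrate) and B12 (0.29 µg B12, 100 mM NaCl). In every group lethally irradiated mice had been rebuilt with equal parts of CD45.1+ Tet2+/+ competitor marrow and CD45.2+ Tet2+/- marrow, left for 1 month and treated for 7 months.

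All libraries hold CD45.2+ cells of genotype Tet2+/- from frozen marrow of 3 mice, pooled before sorting, so the mice cannot be told apart and the Tet2+/+ competitor cells were not measured. Live cKit+ and cKit- cells were sorted apart and mixed in equal parts, which enriches progenitors and sets part of every share given here. The kit was the 3' v3.1 chemistry of 10x Genomics, which tags each captured RNA molecule with a molecular identifier (UMI) so that molecules can be counted. No difference has a replicate check. All intervals are 95% intervals of counting error only. They cover neither differences between mice nor, for RNA levels, variation between cells, and understate the error of a gene whose UMIs come from a few cells.

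Cobalamin, vitamin B12, is the cofactor of methionine synthase, which links the folate cycle to the supply of methyl groups, and of methylmalonyl-CoA mutase in mitochondria. Butyrate is a short-chain fatty acid that gut bacteria make from fibre. It inhibits histone deacetylases, signals through fatty acid receptors on immune cells and is used as fuel. Tet2 oxidises 5-methylcytosine in DNA, and loss of 1 copy favours self-renewal of stem cells and myeloid output. Neutrophils develop from granulocyte-monocyte progenitors (GMPs) and fill their granules in order, with primary granules made at the promyelocyte stage, secondary granules later and tertiary granules last.

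The 4 libraries held 7932 to 9688 barcodes and, over the cells used, 81961399 to 103751332 UMIs with medians of 11036 to 12009.5 UMIs per cell. Barcodes over the limit of 10% mitochondrial UMIs made up 8.89% in Control, 13.9% in Butyrate, 9.43% in B12 and 5.34% in B12 + Butyrate, the lowest. Pairs of libraries shared 13 to 30 cell barcodes, with 30 (0.372% of the smaller library) between Control and B12 + Butyrate. Clustering all libraries together and naming clusters by their markers gave the classes below, each named "-like" because the names rest on RNA alone. Tet2 was at 96.2 CPM over all cells of Control, 92.4 in Butyrate, 80.0 in B12 and 77.3 in B12 + Butyrate, where CPM is the share of a gene in the summed UMIs, in counts per 1000000. Reads outside a deleted part say nothing about the missing copy, and class shares also move that sum.

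With both treatments the marrow held more neutrophil-like and B-lineage-like cells and fewer monocyte-like, T-like and stem-cell-like cells than Control. Neutrophil-like cells made up 55.2% (54.0 to 56.3%) of cells in B12 + Butyrate and 43.5% (42.4 to 44.6%) in Control, a ratio of 1.27 (1.23 to 1.31). Monocyte-like cells made up 14.8% (14.0 to 15.6%) against 23.1% (22.2 to 24.0%), a ratio of 0.641 (0.599 to 0.687). GMP-like cells, the shared precursors of both, stood at 4.27% (3.81 to 4.76%) and 4.38% (3.95 to 4.85%), and their ratio of 0.973 (0.838 to 1.13) spans 1. Monocyte-like cells were 21.1% of neutrophil-like plus monocyte-like cells with both treatments and 34.7% in Control.

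**Figure D1:**
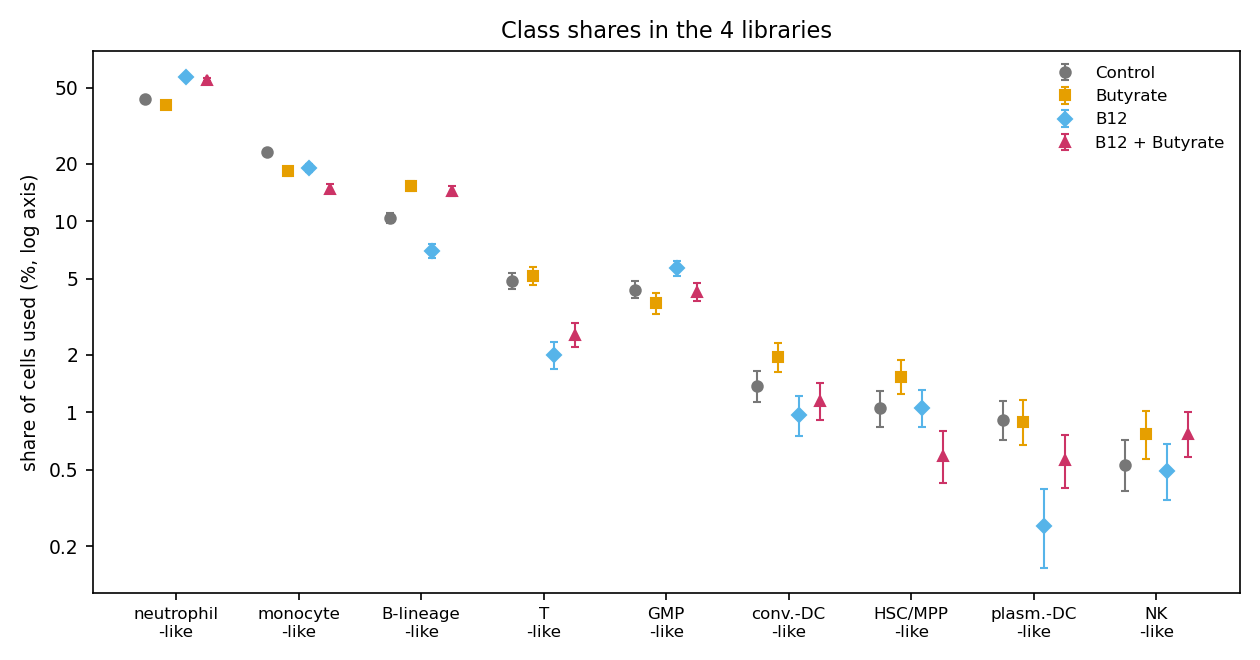
Share of the cells used (percent, log axis) for 9 cell classes in the 4 libraries, with exact binomial 95% intervals. B12 + Butyrate sits beside B12 for neutrophil-like cells (55.2% and 56.9%), beside Butyrate for B-lineage-like cells (14.4% and 15.3%), and below every other library for monocyte-like (14.8%) and HSC/MPP-like cells (0.590%).

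Among lymphoid classes the difference had opposite signs. B-lineage-like cells were 14.4% (13.6 to 15.2%) with both treatments and 10.4% (9.76 to 11.1%) in Control, a ratio of 1.38 (1.27 to 1.5). The T-like share stood at 2.55% (2.20 to 2.95%) against 4.86% (4.4 to 5.35%), and its ratio to Control was 0.526 (0.443 to 0.626). Within the lymphoid classes (T-like, NK-like, plasma-like and B-lineage-like) the B-lineage-like part was 80.9% against 65.0% and the T-like part 14.4% against 30.3%. NK-like cells were 0.772% against 0.533%, with a ratio of 1.45 (0.974 to 2.16) that spans 1.

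The myeloid part of all myeloid-like plus lymphoid-like cells was 81.0% (80.0 to 81.9%) with both treatments and 82.0% (81.1 to 82.9%) in Control, a ratio of 0.988 (0.972 to 1.00). It was 89.8% in B12 and 75.2% in Butyrate, so the library with both lay between the single treatments and near Control. In that total, more neutrophil-like cells stood beside fewer monocyte-like ones, and more B-lineage-like cells beside fewer T-like ones.

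The share of stem-cell-like cells with both treatments was below that of each single treatment. HSC/MPP-like cells (haematopoietic stem cells and multipotent progenitors) were 42 of 7124 cells with both treatments, 0.590% (0.425 to 0.796%), and 85 of 8074 in Control, 1.05% (0.842 to 1.30%), a ratio of 0.560 (0.387 to 0.809). They made up 1.06% in B12 and 1.54% in Butyrate. Counted with the GMP-like cells, they made up 12.1% (8.89 to 16.1%) with both and 19.4% (15.8 to 23.4%) in Control. The 2 clusters in the class were not in the same proportion. The one led by Mecom and Hlf, regulators of stem cell maintenance, was 31.0% (17.6 to 47.1%, 13 cells) of the class with both treatments. It was 54.1% (43.0 to 65.0%, 46 cells) in Control, 40.8% in Butyrate and 39.2% in B12. Its share of all cells had a ratio to Control of 0.320 (0.173 to 0.592). The other, cluster 17, had a ratio of 0.843 (0.522 to 1.36), which spans 1. Cluster 17 scored 1.495 for HSC/MPP markers and 1.347 for GMP markers.

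Plasmacytoid-DC-like cells, the interferon-producing dendritic cells, were 0.561% (40 cells) against 0.917% (74 cells), and conventional-DC-like cells 1.15% against 1.37% with a ratio of 0.837 (0.630 to 1.11). Plasma-like cells numbered 5 and 18, basophil-like cells 18 and 31, and eosinophil-like cells 12 and 23. The clusters left without a name, among them a cluster led by Cd209a and MHC class II genes and one of low UMI counts, made up 5.28% of cells with both and 9.03% in Control.

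If the single differences simply added on the log2 scale, the log2 ratio of B12 + Butyrate to Control would equal the B12 ratio plus the Butyrate ratio, each taken to the same Control. The difference between the joint value and that sum is called the departure, and its interval includes the counting error of all 4 libraries. In neutrophil-like cells the joint log2 ratio was 0.34 and the sum 0.28 (0.39 for B12, −0.11 for Butyrate), a departure of 0.06 (−0.01 to 0.13) that was 0.17 with a looser cell filter. In monocyte-like cells the joint ratio was −0.64 and the sum −0.62 (−0.29 and −0.33), a departure of −0.02 (−0.16 to 0.12). Both myeloid classes, with their clusters merged, thus lay at the sum within counting error. The neutrophil-like difference matched B12 in sign, and the monocyte-like difference was made of both treatments in about equal parts. Single clusters did not all lie at the sum. Among neutrophil-like clusters, cluster 7 departed by 0.88 (0.61 to 1.16) and cluster 0 by −0.44 (−0.64 to −0.24). Clusters 2 and 3 also lay above the sum and clusters 10 and 25 below it. The intervals of clusters 1, 13 and 20 spanned 0. Monocyte-like cluster 21, with 211 cells, departed by −1.997 (−2.82 to −1.18), and the intervals of clusters 5, 6, 9 and 26 spanned 0.

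T-like cells had a joint log2 ratio of −0.93 and a sum of −1.19, almost all of it from B12 (−1.28), with a departure of 0.27 (−0.11 to 0.64). GMP-like cells had a departure of −0.18 (−0.49 to 0.13). Both intervals span 0. The clusters of the T-like class departed in opposite directions. Cluster 16, led by Tox and Ikzf2, departed by 1.13 (0.58 to 1.67) and cluster 18 by −0.60 (−1.14 to −0.05).

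B-lineage-like cells lay above the sum. B12 alone had a log2 ratio of −0.58 and Butyrate alone 0.55, which add to −0.03 or an expected share of 10.2%. The share with both was 14.4%, a joint ratio of 0.46 and a departure of 0.49 (0.30 to 0.68), or 2.54 percentage points (1.05 to 4.03) on the additive scale of shares. Butyrate water thus went with a log2 difference of 1.04 (0.90 to 1.19) between libraries with B12 and 0.55 (0.43 to 0.68) between those without. The departure depended on the cell filter: it was 0.18 with a looser filter that keeps cells up to 20% mitochondrial UMIs and 0.85 with a stricter one at 5%. The clusters of the class were not alike. Cluster 4, led by Ighd and Bank1 and the largest with 2206 cells, departed by 0.14 (−0.09 to 0.38), which spans 0. Cluster 12 departed by 1.28 (0.86 to 1.70), cluster 22 by 1.06 (0.21 to 1.90) and cluster 27 by 0.88 (−0.25 to 2.01). Within the lymphoid classes the B-lineage-like part lay on the sum, with 80.9% measured and 80.9% expected, a departure of −0.00 (−0.11 to 0.10).

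HSC/MPP-like cells lay below the sum. B12 alone gave a log2 ratio of 0.01 (−0.43 to 0.45) and Butyrate alone 0.55 (0.13 to 0.97), for an expected share of 1.55%, and the joint ratio was −0.84 (−1.37 to −0.31). The departure was −1.39 (−2.07 to −0.71), and −0.96 (−1.58 to −0.34) as a part of GMP-like and HSC/MPP-like cells together. At a clustering resolution of 0.5 the share departure was −0.77, and in every other alternative computed it lay between −1.67 and −1.20. With 42 to 98 cells per library, and each library from 3 mice, what 1 mouse added to this class cannot be told apart from the treatment. Plasmacytoid-DC-like cells, with 19 cells in B12, had a departure of 1.18 (0.25 to 2.11) on the log2 scale and of 0.33 percentage points (−0.05 to 0.70), which spans 0.

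**Figure D2:**
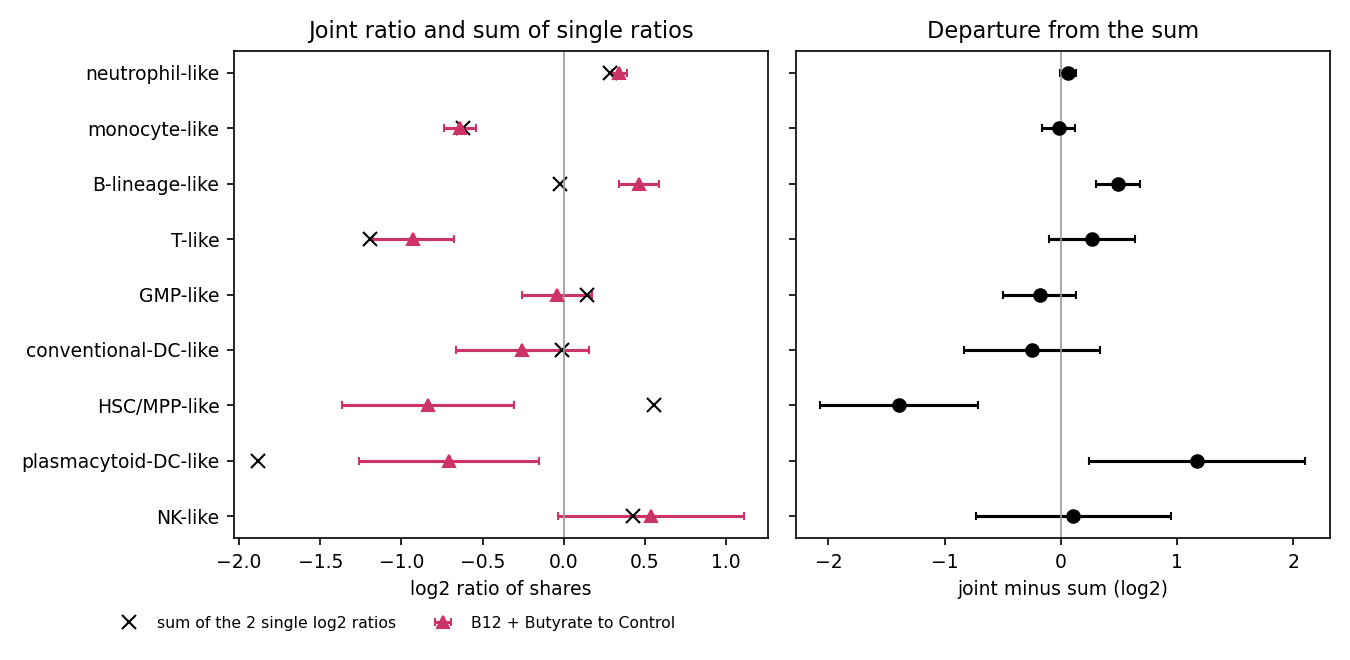
Left, log2 ratio of each class share in B12 + Butyrate to Control (triangles, 95% counting intervals) and the sum of the single-treatment log2 ratios (crosses). Right, their difference with its 95% counting interval. Neutrophil-like and monocyte-like cells lie near the sum (0.06 and −0.02), B-lineage-like cells above it (0.49) and HSC/MPP-like cells below it (−1.39).

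RNA levels were compared per class on UMIs summed over its cells and scaled to CPM, for the 6 classes with the most cells or a progenitor role. Log2 ratios used a pseudocount of 10 CPM, which understates ratios of low genes, and a gene counted as different when the ratio reached 1.5-fold. Genes with a mean of 10 CPM or more over the 4 libraries are called measured. Measured genes below Control by any amount numbered 4111 in neutrophil-like, 4163 in monocyte-like and 4136 in B-lineage-like cells, beside 2530, 4066 and 4198 above. In GMP-like, T-like and HSC/MPP-like cells they numbered 5010, 4537 and 4790, beside 2911, 4003 and 4152 above. UMIs of near-identical gene copies, such as Hspa1a and Hspa1b, the histone, Ear, Klra and MHC class I families, may have been split or dropped in the authors' counting.

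In neutrophil-like cells most genes lay near Control with both treatments, and a small set was lower, among them Wfdc17, Ifitm1 and primary granule genes. Of 6641 measured genes 4 (0.0602%) were 1.5-fold or more higher and 10 (0.151%) lower, and the median log2 ratio of all was −0.02. Wfdc17 (ENSMUSG00000069792), a secreted antiprotease-like protein, was at 108 CPM in Control, 26.2 in Butyrate, 103 in B12 and 21.7 in B12 + Butyrate. Levels of Ifitm1 (ENSMUSG00000025491), a membrane protein induced by interferon, were 135, 38.8, 108 and 40.5 CPM. For both genes the 2 libraries with butyrate water were low and the 2 without were high. The joint log2 ratios were −1.89 (−1.96 to −1.82) and −1.52 (−1.58 to −1.46), and the sums −1.76 and −1.86.

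Primary granule genes were lower, with a median log2 ratio of −0.70 over 7 measured members of which 6 were lower, 4 of them past 1.5-fold. By any amount, 4111 of the 6641 measured genes were lower. Mpo, myeloperoxidase, was at 109 CPM in Control, 48.0 in Butyrate, 67.0 in B12 and 41.0 in B12 + Butyrate, a joint ratio of −1.23 (−1.29 to −1.17). Prtn3 (proteinase 3) was at 327, 180.3, 273 and 164 CPM. Both stood lowest with both treatments. Lyz2, lysozyme, was the member on the other side, at 11677 CPM in Control and 12962 with both (0.15). The list's single medians were −0.72 for Butyrate and −0.13 for B12, and the median departure was 0.12. When every library was given 1 common makeup of neutrophil clusters, the joint median was −0.38, so the cluster makeup moved it. The 9 GMP markers include Mpo, Elane, Ctsg, Prtn3 and Ms4a3 of the primary granule list. They summed to 1534 CPM in neutrophil-like cells of Control, 1225 in Butyrate, 1453 in B12 and 1160 in B12 + Butyrate (the list's highest and lowest values are Control and B12 + Butyrate). Granule UMIs also appeared in cells that should lack them, and most often in Control. Cells with at least 1 Mpo UMI made up 35.9% of neutrophil-like and 22.7% of B-lineage-like cells in Control, 19.4% and 9.36% in Butyrate, 18.0% and 8.64% in B12, and 12.2% and 3.22% in B12 + Butyrate. In Control and B12 + Butyrate the median depth was 11927 and 12957 UMIs per neutrophil-like cell and 4870 and 5186.5 per B-lineage-like cell. With each cell thinned to 2000 UMIs (55, 30, 21 and 20 cells left out, in that order) the Mpo shares were 12.4% and 2.97% of neutrophil-like and 11% and 1.49% of B-lineage-like cells. The part of the GMP markers and of these stray UMIs in the primary granule result was not tested.

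Secondary granule genes (median 0.09, 10 of 13 higher) and tertiary granule and maturation genes (median −0.03, 6 higher and 8 lower of 14) had medians near 0. Cd177, a surface protein of granule-bearing neutrophils, was at 894 and 994 CPM in Control and B12 + Butyrate, and the alarmin S100a8 had a log2 ratio of 0.03. Single inflammatory genes went both ways: the chemokine gene Cxcl2 was at 47.8 CPM in Control and 25.1 with both (−0.72), Il1b, interleukin 1 beta, at 56.6 and 35.7 (−0.55), and Tnf, tumour necrosis factor, at 91.7 and 124 (0.39). Gadd45b, a stress-induced growth arrest gene, was higher past 1.5-fold (50.9 and 84.0 CPM, 0.63). Higher by less than 1.5-fold were Cmss1 (443 and 620.5, 0.48), the eosinophil-type ribonuclease Ear2 (41.9 and 62.0, 0.47) and the Hsp40 cochaperone Dnajb1 (51.7 and 75, 0.46).

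The joint difference of neutrophil-like cells was not the sum for some maturation genes. Of the measured genes 5 (0.0753%) departed upward by 1.5-fold or more and 11 (0.166%) downward. Retnlg, a resistin-like protein of mature neutrophils, was at 3426 CPM in Control, 1908 in Butyrate, 2738 in B12 and 2715 in B12 + Butyrate. Each single treatment stood below Control and the sum was −1.16, while the joint ratio was −0.33, a departure of 0.83 (0.81 to 0.85). The tertiary granule proteases Mmp8 (411, 349, 368 and 489 CPM, departure 0.63) and Mmp9 (561, 436, 464 and 556 CPM, 0.61) also stood below Control in each single treatment, and the library with both was above either one. These 3 genes lead cluster 7, which held 14.1%, 9.92%, 10.8% and 13.5% of neutrophil-like cells, and with the same makeup of clusters the departures were 0.40, 0.01 and 0.11.

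Olfm4 (olfactomedin 4), a granule glycoprotein of a neutrophil subset, departed the other way. It was at 133 CPM in Control, 143 in Butyrate, 425 in B12 and 163 in B12 + Butyrate, so the B12 library stood alone and the library with both lay near Control and Butyrate. The sum was 1.70, the joint ratio 0.27 (0.23 to 0.32) and the departure −1.43 (−1.49 to −1.37). In GMP-like cells the same gene was at 15.1, 18.9, 63.0 and 21.8 CPM, with a departure of −1.41 (−1.68 to −1.14). Olr1, a scavenger receptor for oxidised lipoprotein (169.9, 249, 202 and 145 CPM, −0.98), and the immediate early gene Egr1 (78.7, 120.0, 104 and 96.3 CPM, −0.65) also lay below the sum.

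**Figure D3:**
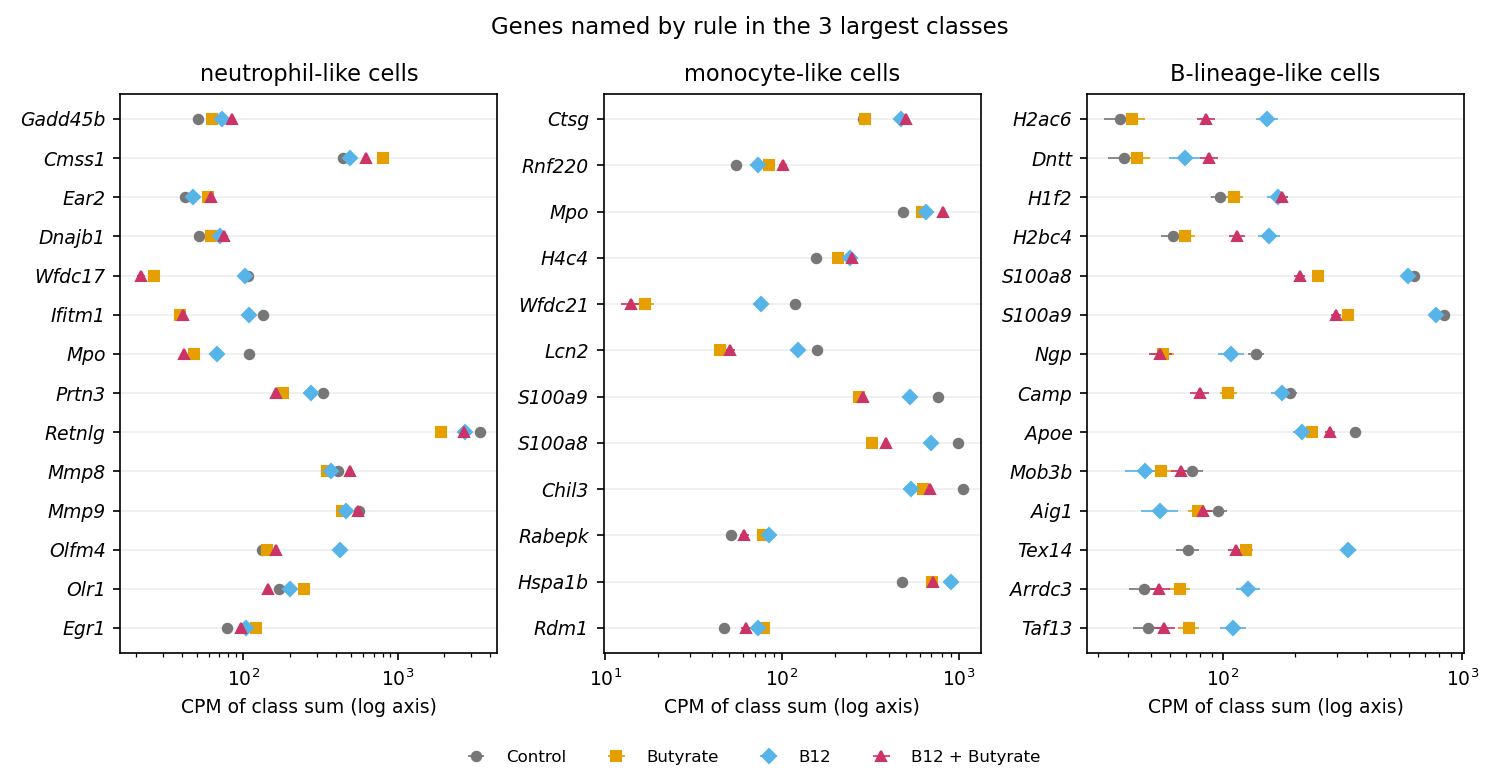
CPM (log axis) of the genes named by rule in neutrophil-like, monocyte-like and B-lineage-like cells of the 4 libraries, with exact Poisson 95% intervals of the class sums. Wfdc17 in neutrophil-like cells falls into 2 pairs by butyrate water (21.7 and 26.2 against 103 and 108 CPM), while Olfm4 in neutrophil-like cells and Tex14 in B-lineage-like cells are high in B12 alone (425 and 333 CPM).

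Monocyte-like cells with both treatments had lower levels of Vcan, of the alarmins S100a8 and S100a9 and of 3 chemokine genes, and higher levels of interferon-induced and S phase genes and of a few granule proteases. Of 8229 measured genes 18 (0.219%) were higher and 49 (0.595%) lower, around a median of all genes of −0.00. Vcan encodes versican, a matrix proteoglycan that classical monocytes make, and was at 272 CPM in Control, 122 in Butyrate, 264 in B12 and 108 in B12 + Butyrate. Both butyrate libraries were low, with a joint ratio of −1.26 (−1.33 to −1.19) and a sum of −1.14. Of the 5 measured monocyte matrix genes, Vcan among them, 2 were higher and 3 lower, with a median of −0.09 and 1 past 1.5-fold. Wfdc17 had the same pairing here, at 738, 487, 654 and 451 CPM, a joint ratio of −0.70.

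Neutrophil-type transcripts were the lowest in ratio. Wfdc21, an antiprotease, was at 119 CPM in Control, 16.7 in Butyrate, 75.8 in B12 and 14.0 in B12 + Butyrate, a joint ratio of −2.43 (−2.55 to −2.31). Lcn2, a siderophore-binding protein, was at 158, 44.4, 124 and 50.6 CPM. The alarmins S100a8 (986, 322, 692 and 388 CPM, −1.32) and S100a9 (762, 272, 528 and 285 CPM, −1.39), subunits of calprotectin, lay 0.77 and 0.59 above their sums. Secondary granule genes had a median of −0.54, with 8 of 10 lower and 4 past 1.5-fold. The 9 immature neutrophil markers summed to 2808 CPM in monocyte-like cells of Control, 2174 in Butyrate, 1987 in B12 and 2132 in B12 + Butyrate, none of them at 0 UMIs, and the part of neutrophil RNA in these values was not tested.

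In the summed UMIs of monocyte-like cells 3 primary granule genes were higher, while the share of cells with at least 1 UMI of each was lower. Ctsg, cathepsin G, was at 287 CPM in Control, 293 in Butyrate, 469 in B12 and 502 in B12 + Butyrate, Mpo at 484, 618, 655 and 809, and Elane, neutrophil elastase, at 481, 438, 674 and 739. The 2 libraries with B12 were the highest for each. Their joint ratios were 0.78, 0.73 and 0.61, and the list median 0.30 (6 of 8 higher), with Ctsc, the protease that activates these enzymes, lower (969 to 585 CPM, −0.72). Cells with at least 1 Mpo UMI made up 42.2% of monocyte-like cells in Control and 22.2% with both treatments, those with Elane 50.2% and 33.0%, and those with Ctsg 38.8% and 26.9%, at medians of 12717 and 12920 UMIs per cell. Thinned to 2000 UMIs per cell (11 and 12 cells left out), the shares were 17.7% and 12.7% for Mpo, 22.1% and 18.7% for Elane and 15.6% and 15.3% for Ctsg, nearly equal for the last. The share of B-lineage-like cells with an Mpo UMI, given above, was also lower with both treatments, and its part was not tested. The GMP markers, which include Ctsg, Mpo and Elane, summed in the same cells to 2571, 2434, 3492 and 3507 CPM. At a clustering resolution of 2 the ratios of Ctsg, Mpo and Elane were 0.02, −0.27 and −0.21.

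All 21 measured S phase genes were higher in monocyte-like cells of B12 + Butyrate than of Control, with a median of 0.25. Dut, which removes dUTP, was at 123 CPM in Control, 125 in Butyrate, 198 in B12 and 171 in B12 + Butyrate (0.45), and Mcm6, a subunit of the replicative helicase, at 64.9, 70.9, 90.2 and 91.9 (0.44). G2/M genes went the other way, with a median of −0.30 and 19 of 21 lower: Ube2c, which ubiquitinates mitotic cyclins, was at 164 and 104 CPM, and Hmmr at 52.4 and 33.0, while Aurkb, a mitotic kinase, was at 50.3 and 56. With the same makeup of clusters the S phase median was 0.13 and the G2/M median −0.42.

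Interferon-induced genes were higher in 22 of 25 measured members, with a median of 0.21 and none past 1.5-fold. The single medians were 0.38 for Butyrate and −0.13 for B12, and the median departure was −0.05. Ifi27l2a was at 636 CPM in Control, 1160.0 in Butyrate, 625 in B12 and 866 in B12 + Butyrate (0.44), Oasl2, a 2'-5' oligoadenylate synthetase-like protein, at 22.9, 42.2, 25.3 and 35.6 (0.47), and the RNA sensor Ifih1 at 44.3, 44.5, 36.8 and 40.5 (−0.10).

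Inflammatory lists of monocyte-like cells leaned lower. Of 15 NF-kB targets 12 were lower (median −0.09) and of 12 Toll-like receptor genes 9 (median −0.17), among them Cd14, the lipopolysaccharide co-receptor (29.3 to 16.0 CPM, −0.60), and the adaptor Myd88 (79.7 to 53.6, −0.50). The chemokines Ccl4 (40.6, 9.27, 32.1 and 11.9 CPM, −1.21) and Cxcl2 (85.3, 49.4, 70.9 and 35.1 CPM, −1.08) were lowest in the butyrate libraries, while Ccl2 (90.4, 70.5, 63.1 and 46.3 CPM, −0.83) was lowest in the B12 libraries. Tnf stood opposite, at 68.6 CPM in Control and 104, 112 and 102 in the treated libraries (0.51). All 10 measured genes of cholesterol synthesis and uptake were lower, with a median of −0.17 and Insig1, a sterol sensor, at 57.0 and 42.3 CPM.

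Departures in monocyte-like cells numbered 9 upward (0.109%) and 25 downward (0.304%). Chil3, a chitinase-like protein of immature monocytes and neutrophils, was at 1054 CPM in Control and 625, 538 and 685 in Butyrate, B12 and B12 + Butyrate. Each treated library was lower by a like amount, so the joint ratio of −0.61 lay 1.09 (1.04 to 1.14) above the sum of −1.70. Below the sum were Rabepk (51.3, 77.7, 84.4 and 61.3 CPM, −0.92), Rdm1 (46.8, 78.9, 72.7 and 62.5, −0.84) and the heat shock gene Hspa1b (477, 701, 908 and 714, −0.89). For these 3 genes every treated library was above Control and the joint one was not the highest.

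In B-lineage-like cells Dntt and 3 histone genes had the highest ratios to Control among genes at 50 CPM or more, and granule transcripts were lower. Of 8335 measured genes 35 (0.42%) were higher and 26 (0.312%) lower, with a median of 0.00. Dntt, the terminal transferase that adds bases at immunoglobulin gene joints in pro-B cells, was at 38.6 CPM in Control, 43.6 in Butyrate, 69.5 in B12 and 87.0 in B12 + Butyrate, a joint ratio of 1.00 (0.80 to 1.20). Its UMIs came from 34 of 1024 B-lineage-like cells with both treatments and 29 of 841 in Control. With the same makeup of B clusters it was 0.41. Rag1, the recombinase, was at 15.3, 11.3, 22.3 and 27.6 CPM (0.57). The B cell maturation list was otherwise near Control, with a median of 0.04, 11 of 15 members higher, the IgE receptor Fcer2a at 155 and 203 CPM and Ms4a1, which encodes CD20, at 864 and 813.

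The histone genes H2ac6 (37.2, 41.6, 153 and 84.7 CPM), H1f2 (97.5, 111, 169 and 176) and H2bc4 (62.0, 69.3, 156 and 114) were highest in the B12 libraries, with joint ratios of 1.00, 0.79 and 0.79. The 13 mitochondrially encoded genes of the respiratory chain were all higher than Control (median 0.29), with mt-Nd3, a complex I subunit, at 249 CPM in Control, 431 in Butyrate, 256 in B12 and 394 in B12 + Butyrate. In T-like and monocyte-like cells 12 of the 13 were higher (medians 0.30 and 0.10), and in the other classes 7 or 8 (0.02 to 0.05). The cell filter cuts on mitochondrial UMIs and removed unlike parts of the libraries, as given above. In B-lineage-like cells S100a8 was at 628, 249.9, 594 and 209 CPM and S100a9 at 837, 332, 776 and 296, with joint ratios of −1.54 and −1.47. The 9 immature neutrophil markers summed to 857, 588, 723 and 541 CPM in the same cells. Of the Control UMIs of S100a8 in this class 25.1% came from 1 cell, and the secondary granule median of −0.90 (6 of 6 lower, 5 past 1.5-fold) was −0.48 with called doublets kept. The share of these cells with an S100a8 UMI was 77.9% in Control and 68.0% with both treatments, and 48.7% and 37.5% thinned to 2000 UMIs.

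Departures were more frequent in B-lineage-like cells than differences from Control: 133 upward (1.6%) and 177 downward (2.12%) of 8335. A departure carries the counting error of all 4 libraries, so more genes can pass a fixed fold by that error alone. The class sum of B12 was the smallest, with 2330661 UMIs from 521 cells, against 4565282 in Control, 5501226 in Butyrate and 6044198 in B12 + Butyrate. Tex14 (a germ cell bridge protein) was at 71.4 CPM in Control, 124 in Butyrate, 333 in B12 and 113 in B12 + Butyrate. The B12 library stood far above the other 3, and the sum of 2.80 exceeded the joint ratio of 0.60 (0.43 to 0.76) by 2.20, a departure of −2.20 (−2.42 to −1.98). Arrdc3, an arrestin-type regulator of receptor traffic (46.7, 65.8, 127 and 53.8 CPM, −1.52), and Taf13, a subunit of the general transcription factor TFIID (48.4, 71.8, 109.8 and 56.4 CPM, −1.34), had the same order. Above the sum lay Apoe, apolipoprotein E (355, 235, 214 and 279 CPM, 0.95), Mob3b (0.80) and Aig1 (0.76), each highest in Control. Cluster 12 made up 30.4% of B-lineage-like cells in Control, 24.9% in Butyrate, 17.9% in B12 and 25.2% in B12 + Butyrate. The libraries thus differed in makeup, in the same order as Apoe. Apoe departed by 0.00 with the looser and 0.04 with the stricter cell filter. G2/M genes had a median departure of −0.45, with 5 past 1.5-fold downward, a median joint ratio of 0.17 and a B12 median of 0.59, and Ube2c stood at 18.0, 20, 57.9 and 26.5 CPM. That list departed by −0.99 with the stricter filter and −0.12 with cells thinned to 2000 UMIs.

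In GMP-like cells few genes differed from Control. Of 7921 measured genes 3 (0.0379%) were higher with both treatments and 10 (0.126%) lower, with a median of −0.04. Glis3, a zinc finger factor, was at 93.9 CPM in Control, 66.4 in Butyrate, 59.5 in B12 and 53.6 in B12 + Butyrate (−0.71), and Pim1, a survival kinase induced by cytokines, at 84.3, 62.9, 82.1 and 51.5 (−0.62). Higher by less than 1.5-fold, and so not among the 3 counted, were Ly6a2 (127, 242, 157 and 186 CPM, 0.52), Ifi27 (58.0, 90.6, 79.7 and 84.0, 0.47) and Gadd45b (79.8 and 114 in Control and B12 + Butyrate, 0.46). The unfolded protein response list was lower in 14 of 15 members with a median of −0.14, led by the endoplasmic reticulum chaperones Hsp90b1 (989, 633, 834 and 746 CPM, −0.40) and Pdia3 (774, 506, 658 and 585 CPM, −0.40), with Dnajb9 at 65.7 and 74.3. By any amount, 5010 of the 7921 measured genes were lower. The Butyrate median of the list, −0.37, was deeper than the joint one, and its median departure was 0.31.

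Departures in GMP-like cells numbered 12 upward (0.151%) and 30 downward (0.379%). Ltf, lactotransferrin of secondary granules, was at 205 CPM in Control, 112 in Butyrate, 118 in B12 and 137 in B12 + Butyrate, 1.02 above its sum. The departure of Ltf was 0.02 with the looser cell filter and 0.28 with doublets kept. Fkbp11, a prolyl isomerase of the secretory pathway, was at 75.8, 32.8, 56.7 and 46.7 CPM (0.77), and H2-Q7, a nonclassical MHC class I gene, at 73.8, 54.1, 43.5 and 52.2 (0.61). Hspa1a, the inducible Hsp70, was at 225, 411, 339 and 284 CPM, 1.09 below the sum, and Dnajb4 at 109, 163, 120.5 and 96.8, 0.82 below.

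Heat shock and immediate early genes, which code for chaperones and for factors induced within minutes of a stimulus, lay below the sum by their median in all 6 classes. The median departure was −0.49 in T-like cells, −0.45 in B-lineage-like cells, −0.31 in GMP-like cells, −0.19 in neutrophil-like cells and −0.17 in both HSC/MPP-like and monocyte-like cells, where the medians of all measured genes lay between −0.01 and 0.03. The members past 1.5-fold below the sum numbered 6 of 18, 7 of 18, 4 of 17, 3 of 16, 4 of 18 and 3 of 18 in the same order, beside 7.33%, 2.12%, 0.379%, 0.166%, 5.33% and 0.304% of all measured genes, and none lay above it by that fold. Over 5403 genes measured in all 6 classes, 5 lay below the sum in 4 or more classes and 2 in 5 or more: Hspa1a, in all but T-like cells at this threshold (−0.55 there), and Hspa1b, in all but HSC/MPP-like cells (−0.56). The other 3, named after their values were seen, were Tnf, the Rab9 effector Rabepk and the noncoding RNA Mir142hg. No gene lay above it in 4 classes. Other lists with medians below the sum in every class included the 13 mitochondrially encoded genes (−0.21 to −0.07) and the cytokines and chemokines (−1.15 to −0.03), of which 2 to 10 were measured per class. A list of RNAs that had stood out over whole libraries in earlier results of these data (among them Malat1, Neat1, Cmss1, Cdk8, Lars2 and Tex14) also had median departures below 0 in each class, from −0.55 to −0.15. Against Control, 0 of these genes were 1.5-fold or more higher in 4 classes, and 1, S100a8, was lower in 4.

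Hspa1b was at 25.2 CPM in neutrophil-like cells of Control, 36.3 in Butyrate, 79.5 in B12 and 37.0 in B12 + Butyrate. In GMP-like cells it was at 410.0, 608, 636 and 516 CPM. Control was the lowest library in both classes and B12 the highest. Since the Control library enters the sum 2 times, a low Control raises every sum, and a low Control and a smaller joint response cannot be told apart here. Against Control the joint medians of the list were small, between −0.07 in HSC/MPP-like and 0.21 in T-like cells.

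**Figure D4:**
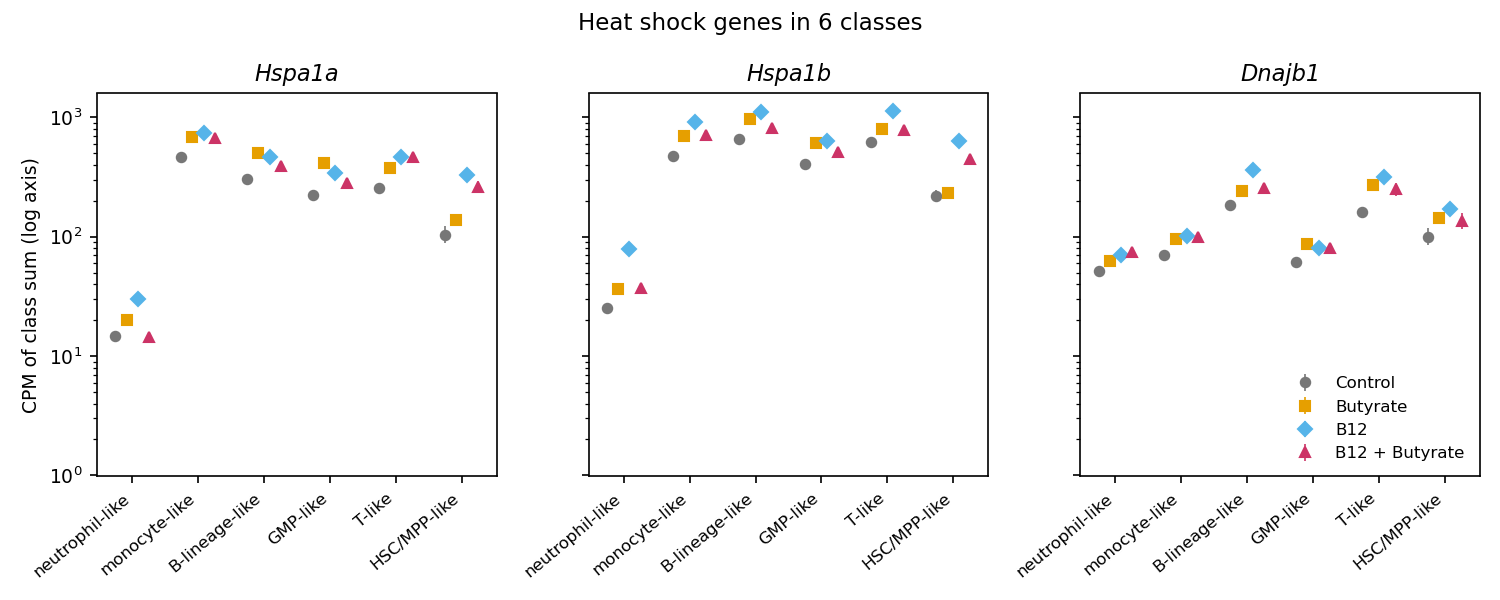
CPM (log axis) of the heat shock genes Hspa1a, Hspa1b and Dnajb1 in 6 classes of the 4 libraries, with exact Poisson 95% intervals. For Hspa1b, Control is lowest and B12 highest in neutrophil-like (25.2 and 79.5 CPM) and GMP-like cells (410.0 and 636 CPM), and B12 + Butyrate lies between them.

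T-like cells, 182 with both treatments and 392 in Control, gave class sums of 1015425 and 1973754 UMIs, so small levels carry few molecules. Of 8541 measured genes 175 (2.05%) were higher and 245 (2.87%) lower. Insyn2b was at 76.5 CPM in Control, 104 in Butyrate, 96.0 in B12 and 176 in B12 + Butyrate (1.11, 0.82 to 1.39), and Klra7, a Ly49-family receptor of NK and memory T cells, at 36.5, 58.0, 87.9 and 79.8 (0.95). Nfyb, a subunit of the CCAAT-binding factor, was at 43.1, 47.6, 41.9 and 89.6 CPM (0.91), highest with both treatments. Lower were Zeb2, a factor of effector T cells (213, 129, 141 and 73.9 CPM, −1.41), and Tshz2 (157, 39.1, 25.7 and 42.3 CPM, −1.67). Klra7 UMIs came from 16 cells in Control and 13 with both treatments, and Tshz2 UMIs from 40 and 9. Those of Insyn2b came from 116 and 88 cells. Cluster 16, led by Tox and Ikzf2, made up 62.0% of T-like cells in Control, 55.9% in Butyrate, 36.2% in B12 and 59.3% in B12 + Butyrate, so the B12 library differed in makeup.

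Departures in T-like cells were many, 861 upward (10.1%) and 626 downward (7.33%). B3galt1, a galactosyltransferase (197, 67.2, 20.3 and 122 CPM), the calcium channel Cacna1d (275, 69, 51.4 and 134 CPM) and the heparan sulfate sulfotransferase Hs6st3 (77.5, 33.0, 14.9 and 76.8 CPM) lay 3.55, 3.08 and 2.83 above their sums. Few cells carried them: the B12 library held 15 UMIs of B3galt1 in 6 cells and 11 of Hs6st3 in 2 cells. Hdac9, a class IIa histone deacetylase, was at 63.8, 178, 122 and 73.9 CPM with a departure of −2.0, and 60.8% of its UMIs in Butyrate came from 1 cell. Without each gene's top cell that departure was −1.14. The granule transcripts Mpo (75.5, 21.4, 258 and 8.86 CPM) and Prtn3 (76.5, 15.3, 129.8 and 4.92 CPM) had joint ratios of −2.18 and −2.54, with 94.8% and 84.4% of the B12 UMIs in 1 cell. Without the top cells their departures of −2.38 and −1.45 became 1.05 and 0.64. The GMP markers, which include Mpo and Prtn3, summed to 898, 706, 1479 and 596 CPM in these cells.

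HSC/MPP-like cells with both treatments had lower levels of stem cell identity genes and higher levels of S phase and glycolysis genes than Control. Of 8942 measured genes 208 (2.33%) were higher and 386 (4.32%) lower, on class sums of 1189920 and 1499220 UMIs from 42 and 85 cells. The median depth was 28672 UMIs per cell with both treatments and 15254 in Control. The median of the HSC identity list was −0.38, and 12 of its 14 measured members stood below Control. Mecom was at 558 CPM in Control, 447 in Butyrate, 501 in B12 and 324 in B12 + Butyrate (−0.76), Hlf at 245, 276, 196 and 139 (−0.78), and Ly6a, which encodes the stem cell antigen Sca-1, at 38.0, 39.1, 21.2 and 9.24 (−1.32). All 3 were lowest with both treatments. Procr, the endothelial protein C receptor, stood opposite at 9.34, 8.64, 12.4 and 21.9 CPM (0.72).

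The identity median followed the makeup of the class: with the 2 clusters in the same proportion it was −0.07, and at a clustering resolution of 0.5 it was −0.10. The 12 HSC/MPP markers summed to 4516 CPM in Control, 4399 in Butyrate, 3662 in B12 and 3381 in B12 + Butyrate, and the 9 GMP markers to 6547, 5662, 6798 and 8022. S phase genes were higher in 20 of 21 members (median 0.33), with Rrm2, the ribonucleotide reductase subunit, at 35.4, 34.5, 57.7 and 70.6 CPM (0.83). With cells thinned the S phase median was 0.16, and clustering at resolution 0.5 gave 0.12. Glycolysis genes were higher in 12 of 15 (median 0.19), with Gapdh at 464, 595, 603 and 790.0 CPM (0.76). The glycolysis median was not computed in the alternatives. Cebpa, a factor that commits progenitors to the myeloid path, was at 66.7 and 97.5 CPM (0.49), in a list of myeloid regulators with 10 of 14 higher.

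Single genes in this class often rested on 1 cell. S100a8 (749.7, 188, 823 and 107 CPM) and Ngp, a secondary granule protein (242, 21.4, 71.9 and 30.3 CPM), had joint ratios of −2.70 and −2.65, with 62.3% and 78.8% of the Control UMIs in 1 cell, and ratios of −1.40 and −0.72 without the top cells. With doublets kept these ratios were 1.74 and 2.37. F13a1, coagulation factor XIII of monocytes, was at 16.0, 28.2, 58.3 and 118 CPM (2.30), with 59.6% of its UMIs with both treatments in 1 cell, and 1.36 without the top cells. Lgals1, galectin 1 (117, 143, 206 and 276 CPM, 1.18), and Cox7b, a cytochrome oxidase subunit (131, 173, 216 and 308 CPM, 1.17), were highest in the B12 libraries. At a clustering resolution of 0.5 these ratios were −0.21 and 0.38. Of departures, 411 (4.6%) were upward and 477 (5.33%) downward. Dntt, here a mark of lymphoid-primed progenitors, was at 25.3, 154, 81.3 and 69.8 CPM, 2.41 below the sum, and Irf8, a factor of monocyte and dendritic cell fate, at 32.7, 88.2, 80.1 and 59.7, 1.57 below. Both were higher in each treated library than in Control, though 62.7% of the Dntt UMIs with both treatments came from 1 cell and its departure was 0.01 at a clustering resolution of 0.5. At that resolution the departure of Irf8 was −0.07 and its joint ratio −0.31, and with doublets kept the ratio was −0.21.

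Lists of genes that handle the treatments themselves had medians between −0.20 and 0.17. Medians for cobalamin uptake and use lay between −0.16 (T-like) and 0.01 (neutrophil-like), for butyrate receptors, transport and oxidation between −0.16 (T-like) and 0.04 (HSC/MPP-like), and for histone deacetylases between −0.20 (T-like) and 0.04 (monocyte-like). Folate and methionine cycle genes were highest in monocyte-like cells, with a median of 0.17 and 9 of 10 higher. Among them Mat2a, which makes S-adenosylmethionine, was at 186 CPM in Control, 248 in Butyrate, 239 in B12 and 255 in B12 + Butyrate (0.44). Tet2 in single classes differed little from Control, at 55.9 and 51.8 CPM in neutrophil-like cells (−0.09), 141 and 134 in monocyte-like cells (−0.07) and 109.7 and 95 in B-lineage-like cells (−0.19). In HSC/MPP-like cells it was at 106 and 79.0 (−0.38, −0.71 to −0.05).

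**Figure D5:**
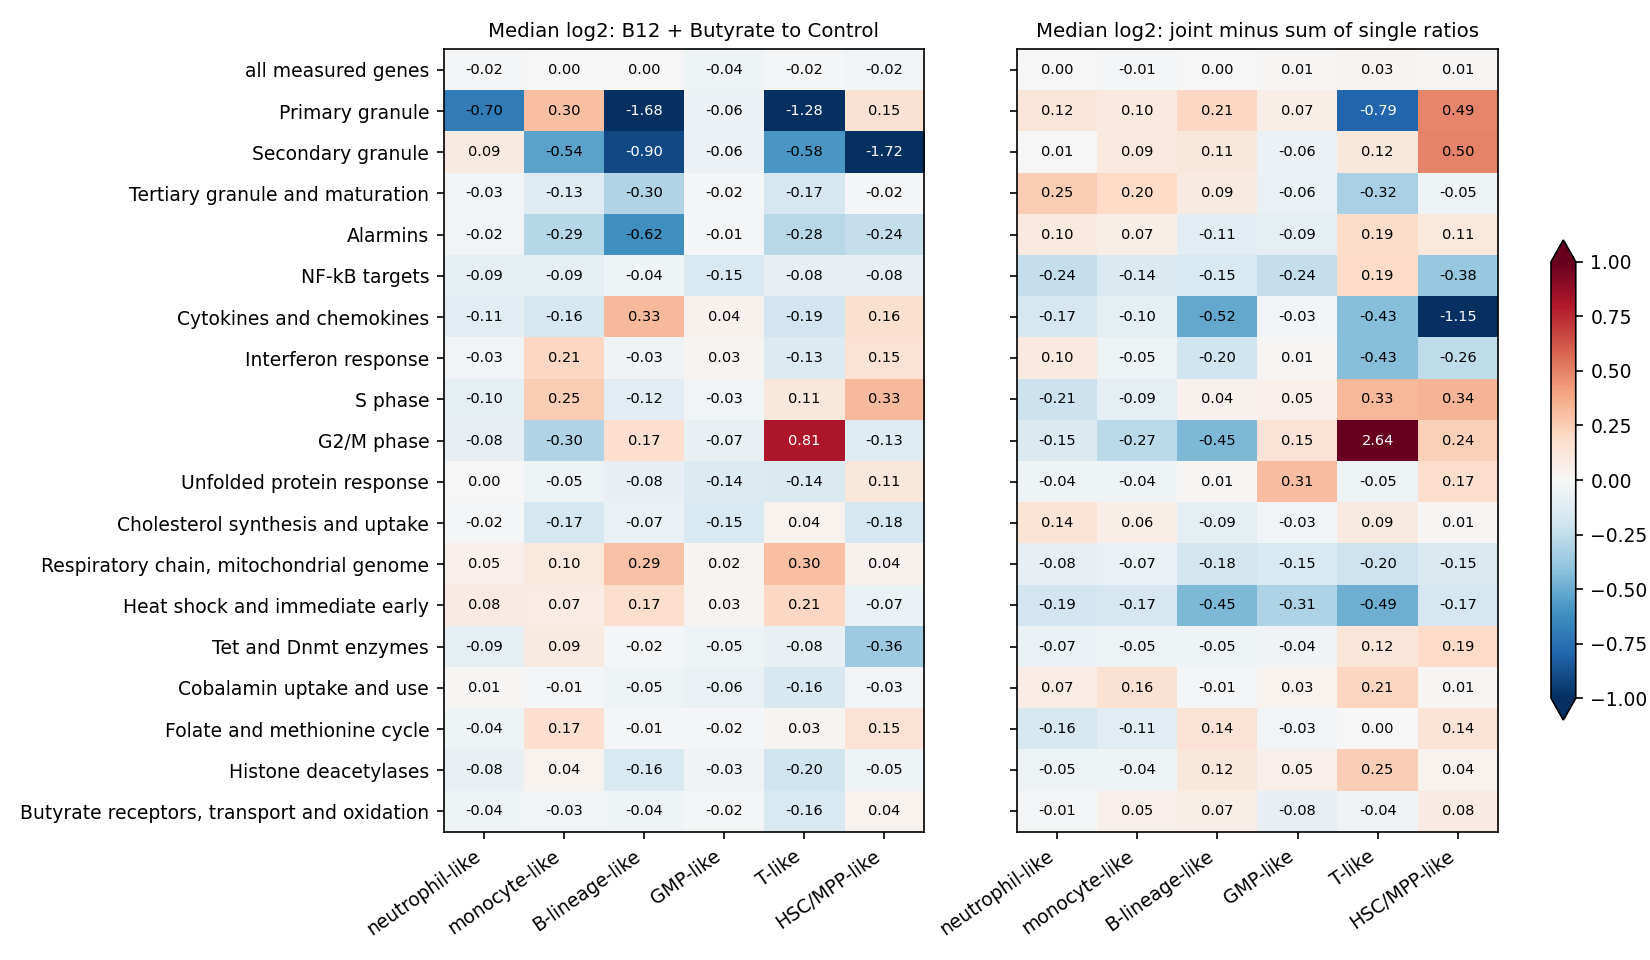
Median log2 ratio of B12 + Butyrate to Control (left) and median departure from the sum of the single ratios (right) for the gene lists in 6 classes, with the value of all measured genes in the top row. Primary granule genes are lower in neutrophil-like cells (−0.70) and higher in monocyte-like cells (0.30), and heat shock and immediate early genes lie below the sum in each class (−0.17 to −0.49).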

How the data were processed

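Counts were used as the authors deposited them, as unscaled UMI counts of every gene in every barcode. Cell Ranger 7.1.0 made them per the file headers, and the submitters' processing notes name the build GRCm39. The handling of intronic reads is not stated there. The members, classes, gene lists and named genes were chosen with earlier results of these data known.

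Of 34670 barcodes with 449267997 UMIs, those with at least 500 genes, 1000 UMIs and at most 10% mitochondrial UMIs were kept. Doublets were called per library against simulated doublets and the top 0.8% per 1000 barcodes removed (678, 431, 578 and 492 in Control, Butyrate, B12 and B12 + Butyrate), leaving 8074, 6362, 7470 and 7124 cells. Counts were scaled to 10000 per cell and log-transformed. All libraries were clustered together without integration, on 2000 variable genes, 30 principal components and 20 shared neighbours, by the Leiden method at resolution 1. Clusters took the type with the highest mean z-score over fixed markers of 20 types, if it reached 1 and at least 3 markers passed. Of 33 clusters 4 stayed unnamed. The score limit, leaving clusters unnamed where own and foreign markers tied among the 10 leading genes, splitting 1 cluster at resolution 0.5 into stem-cell-like, basophil-like and eosinophil-like clusters, and merging neutrophil and B stages were chosen after the clusters were seen.

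UMIs were summed per class and library and divided by the class total (CPM). Levels have exact Poisson intervals, shares exact binomial (Clopper-Pearson) ones, and log2 ratios and departures normal intervals on the log scale, all at 95%. Class sums ran from 739761 UMIs (T-like cells of B12) to 55187532 (neutrophil-like cells of B12 + Butyrate). Named are the 4 genes with the highest and the 4 with the lowest joint ratio and the 3 with the highest and 3 with the lowest departure among genes with a mean of 50 CPM or more (a gene can fall under both, and receptor segments, Xist, Y-linked genes and genes without a symbol of their own are left out), a fixed set (Tet2, S100a8, Elane, Wfdc17, Ifitm1, Vcan, Olfm4 and Retnlg), and per list the 2 members furthest in the direction of its median and the 1 furthest the other way. A gene that this rule names is not reported here. Cd177 in neutrophil-like, Ccl2 in monocyte-like and Mecom in HSC/MPP-like cells, the genes drawn in the heat shock plot and those counted over several classes, were chosen after their values were seen. With 1 library per group no test between groups was run, and counts past 1.5-fold are not tests. The steps were checked on simulated data. Clustering used leidenalg 0.10.2, python-igraph 0.11.9 and scikit-learn 1.9.0, statistics scipy 1.17.1, and tables pandas 2.3.3 with numpy 2.4.6, under Python 3.11.15, and plots were drawn with matplotlib 3.10.9. Alternatives changed the doublet step, resolution, cell filter, pseudocount, gene minimum, fold, scaling, depth, cluster makeup and scale, and 2 (leaving out each gene's top cell, and the share of cells with a granule UMI) were added after seeing the data. No coordinates were used.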

Additional observations from a re-analysis of the deposited data

Results flagged for a closer look

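Among the 6 main class shares and the named genes, 8 met a limit of size: the butyrate differences without B12 (Butyrate against Control) and with B12 (B12 + Butyrate against B12) were opposite, with both counting intervals apart from 0 for a share and both sides at 1.5-fold or more for a gene. Other genes had opposite signs at smaller sizes. With 1 library per group the difference between the 2 was not tested, and it equals the departure from the sum.

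The share of HSC/MPP-like cells had a log2 difference for butyrate water of 0.55 (0.13 to 0.97) without B12 and −0.84 (−1.38 to −0.31) with B12, and these differ by −1.39. Tex14 in B-lineage-like cells had 0.72 without and −1.48 with B12, which differ by −2.20. Its UMIs were spread over 217 to 351 cells per library, with at most 3.2% in 1 cell.

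In T-like cells B3galt1 had −1.42 and 2.13 (a difference of 3.55), Cacna1d −1.85 and 1.23 (3.08), Hs6st3 −1.03 and 1.80 (2.83), Hdac9 1.35 and −0.65 (−2.0), and Apol7e, an apolipoprotein L gene, 0.68 and −1.0 (−1.68). These genes were carried by 2 to 73 cells per library, with 3.8% to 81.8% of the UMIs in the top cell. The B12 library, which enters every one of them, had 149 T-like cells.

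Ccl4, a chemokine, in HSC/MPP-like cells had 0.78 and −1.09 (−1.88), from levels of 39.4 CPM in Control, 75 in Butyrate, 81.3 in B12 and 32.8 in B12 + Butyrate. With both treatments 69.2% of its UMIs came from 1 of 7 cells, and the departure was 0.85 at a clustering resolution of 0.5.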

How the results depend on the processing

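No paired analysis was possible because each group is 1 library and the labels carry no replicate numbers. The log2 share ratios and departures of the 6 main classes kept their direction in the alternatives computed, apart from departures within counting error of 0 (neutrophil-like and monocyte-like cells), and moved beyond counting error in 3 of 42 and 5 of 48 cases. Neutrophil-like cells had a log2 share ratio of 0.41 with doublets kept and 0.68 as log2 odds, and monocyte-like cells −0.79 as log2 odds. The share departure of neutrophil-like cells was 0.17 with the looser cell filter (200 genes, 500 UMIs, 20% mitochondrial UMIs) and −0.031 with the stricter one (1000 genes, 3000 UMIs, 5%). That of B-lineage-like cells was 0.18 looser, 0.85 stricter and 0.28 against a sum of percentage points. What in the cells near the mitochondrial limit moves it was not tested.

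Counts of genes past a fold follow the threshold, the pseudocount and depth, by construction, and are given as neutrophil-like, monocyte-like, B-lineage-like, GMP-like, T-like and HSC/MPP-like. Differences from Control numbered 14, 67, 61, 13, 420 and 594 as reported. They numbered 5, 12, 13, 3, 47 and 81 at a fold of 2, 7, 31, 23, 3, 93 and 165 among genes at 50 CPM or more, 23, 138, 229, 48, 1016 and 1274 with a pseudocount of 1 CPM, and 6, 16, 16, 0, 46 and 88 with 50 CPM. Departures numbered 16, 34, 310, 42, 1487 and 888 as reported. They numbered 5, 1, 38, 6, 354 and 105 at a fold of 2, 6, 16, 93, 13, 447 and 188 at 50 CPM or more, 41, 99, 826, 152, 2359 and 1768 with a pseudocount of 1 CPM, and 5, 8, 43, 7, 300 and 81 with 50 CPM.

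Thinning each cell to 2000 UMIs (170, 143, 231 and 89 cells left out in Control, Butyrate, B12 and B12 + Butyrate) gave differences of 4276 genes in HSC/MPP-like, 1340 in T-like, 702 in GMP-like, 169 in B-lineage-like and 25 in neutrophil-like cells, and 55, 261, 898, 1657, 2863 and 4806 departures over the 6 classes, so at that depth the counts show sampling error. With all genes of 1 or more UMI, GMP-like and T-like cells had 21 and 655 differences, and B-lineage-like, GMP-like, T-like and HSC/MPP-like cells 472, 72, 2385 and 1430 departures. With doublets kept B-lineage-like cells had 115 differences and GMP-like cells 27 departures. B-lineage-like departures numbered 515 with the looser and 485 with the stricter filter, and HSC/MPP-like cells had 73 differences and 97 departures at resolution 0.5.

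The primary granule median of neutrophil-like cells was −0.54 with doublets kept, −0.65 at resolution 0.5, −0.83 thinned, −0.56 with all genes or with those at 50 CPM or more, −0.61 and −0.65 with the looser and stricter filters, −0.47 with a pseudocount of 50 CPM and −0.38 with the same makeup of clusters. Their tertiary granule median was −0.087 thinned and −0.077 with doublets kept. The S phase median of monocyte-like cells was 0.13 at resolution 2, 0.11 thinned, 0.15 with a pseudocount of 50 CPM and 0.13 with the same makeup, and their G2/M median −0.16 and −0.42 under the last 2. The secondary granule median of B-lineage-like cells was −0.56 thinned, −0.48 with doublets kept, −0.66 with all genes, −1.16 at 50 CPM or more, −0.64 with the looser filter, −1.21 and −0.44 with pseudocounts of 1 and 50 CPM, and −0.60 without each gene's top cell. Their mitochondrial median was 0.23 with a pseudocount of 50 CPM and 0.34 with the stricter filter, and their G2/M departure −0.99 with that filter. The HSC identity median was −0.10 at resolution 0.5 and −0.072 with the same makeup. Heat shock departures kept their sign in every class and alternative, between −0.59 and −0.12.

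Single genes reversed in 34 of 3023 values, 21 of them in HSC/MPP-like, 10 in T-like, 2 in monocyte-like and 1 in B-lineage-like cells. In HSC/MPP-like cells at resolution 0.5 joint ratios were −0.014 for Auts2, 0.41 for Camp, −0.090 for Dntt, −0.31 for Irf8, −0.21 for Lgals1, 0.17 for Ngp, 0.35 for S100a8 and 0.37 for S100a9, and departures 0.85 for Ccl4, 0.0073 for Dntt and 3.53 for S100a8. With doublets kept joint ratios there were 2.98 for Camp, −0.21 for Irf8, 2.37 for Ngp, 1.74 for S100a8 and 1.89 for S100a9, and departures −1.87 for Retnlg and 1.46 for S100a8. With the stricter filter Camp was at 0.13 and the departure of S100a8 at 2.92, and thinned, the departure of Ifitm1 was −0.19. In T-like cells departures of Elane, Mpo and Prtn3 were 2.10, 0.88 and 1.10 with doublets kept, 1.16, 0.74 and 0.67 with the stricter filter and 1.34, 1.05 and 0.64 without each gene's top cell, and Elane was at 1.23 thinned. Doublets kept gave Wfdc17 a departure of −0.14 in B-lineage-like cells. At resolution 2 the monocyte-like ratios of Elane and Mpo were −0.21 and −0.27. Scaling by median ratio size factors reversed none of these. The causes were not tested.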
